A study of Mus musculus with 6 samples.

Results

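Focal adhesion and actin linker genes were examined in olfactory epithelium after removal of its target. The set is a named list of 10 genes, Tln1, Vcl, Pxn, Zyx, Flna, Actn1, Actn4, Ilk, Ptk2 and Ablim1, picked by name with earlier results of these arrays known, and the study itself named some of them from these arrays. Of the 10 genes, 9 had probe sets annotated to them alone, out of 16380 genes with at least 1 such probe set, and all 9 were among the 14742 genes tested. Flna was not analysed here.

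The tissue came from 3 male C57BL/6 mice, 8 weeks old per the labels (the study's methods give a younger age at surgery), each of which had 1 olfactory bulb removed (unilateral olfactory bulbectomy, OBX). At 5 days after surgery, RNA of the OBX side and of the side opposite to it, the control side, was hybridised to 1 exon array each, giving 3 OBX and 3 control arrays in 3 pairs. The control side is therefore not tissue of an unoperated animal, and both sides came from the same animal. Values are log2 signals in which 1 unit is a 2-fold change, and all differences are OBX minus control within a mouse, tested by limma with the mouse as a block and Benjamini-Hochberg adjustment over all genes tested.

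Focal adhesions are the sites where integrins, receptors for the extracellular matrix, are joined to the actin cytoskeleton. Talin binds the integrin tail and actin, vinculin strengthens that link, and paxillin, focal adhesion kinase and integrin-linked kinase assemble signalling complexes on it, while zyxin, the alpha-actinins, filamin and the actin-binding LIM proteins act on the actin filaments. In olfactory epithelium, the basal cells, supporting cells, vessels, connective tissue and invading macrophages all use such adhesions, and growing axons use the same proteins in their growth cones. Removal of the bulb kills mature olfactory sensory neurons (OSNs), draws in macrophages and sets basal cells dividing.

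Markers of mature OSNs fell. Omp, their defining marker, was lower on the OBX side of every mouse and fell by 1.01 (SE 0.19, limma adjusted p = 0.0240), and of 13 such markers 12 fell and 1 rose. The macrophage marker Cd68 rose by 1.09 (limma adjusted p = 0.00454). Over all genes tested, 1458 were higher and 1877 lower at an adjusted p under 0.05, and the median difference was -0.01. The medians of the 6 arrays lay between 8.37 and 8.55, and arrays of the same side correlated at 0.970 to 0.983. In bulk tissue, fewer cells of a type and less RNA per cell cannot be told apart, and this holds for every value below.

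On the OBX side, 3 of the 9 genes were higher at the threshold, Tln1, Pxn and Ablim1, and none was lower, where 9.89% of all genes tested were higher and 12.7% lower. At an unadjusted p under 0.05, 7 of the 9 passed, as did 5706 of the 14742 genes tested, in either direction. In 8 of the 9, each of the 3 OBX arrays lay above each of the 3 control arrays, a pattern held by 20.7% of all genes tested. The 9 differences ran from 0.04 for Actn4 to 0.58 for Tln1 with a median of 0.42, and all were above 0 as deposited, but Actn4, Ilk and Ptk2 fell below 0 when arrays were centred on ribosomal protein genes and Actn4 also did without mouse 3. The members' median was 0.23 in mouse 1, 0.40 in mouse 2 and 0.39 in mouse 3. Centring on the ribosomal protein genes moved the median of all genes from -0.01 to -0.24 and the members' median to 0.19, a shift that is the same for every gene, and none of the 9 then passed the threshold.

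**Figure D1:**
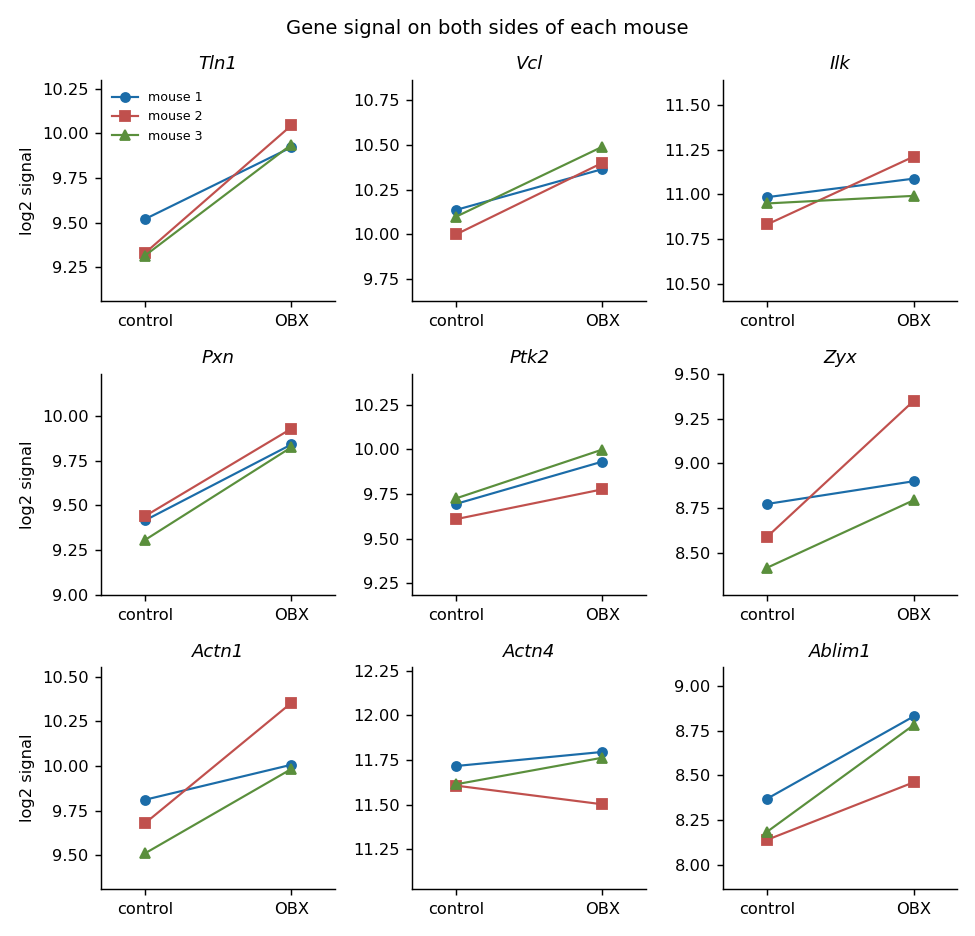
Log2 signal (y axis) of each of the 9 genes on the control and the OBX side (x axis), with 1 line and symbol per mouse; every panel spans the same number of log2 units. The lines of Tln1, Pxn and Ablim1 rise in all 3 mice by 0.32 to 0.71, and the line of Actn4 falls in mouse 2 by 0.10.

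Tln1, which encodes talin 1, the adaptor that activates integrins, had the largest difference of the 9. Its signal was 9.52, 9.33 and 9.32 in the control arrays of mice 1, 2 and 3, against 9.92, 10.04 and 9.94 in the OBX arrays. The lowest OBX array was above the highest control array, and the smallest of the 3 differences, 0.40 in mouse 1, came from the mouse with the highest control side. The mean difference was 0.58 (SE 0.10, 95% interval 0.32 to 0.84, limma adjusted p = 0.0201), a 1.49-fold change. Its paralog Tln2 differed by 0.21 (SE 0.09, limma adjusted p = 0.156), and the difference of Tln1 exceeded that of Tln2 in 3 of 3 mice, by 0.37 ± 0.07 (SD, n = 3 mice). Tln2 was much dimmer, with a control mean of 6.66 against 9.39 for Tln1. Differences between paralogs were not tested, since an exact two-sided sign-flip test on 3 mice cannot go below 0.25. The part of signal level in these differences was not tested either, here or for the pairs below.

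Vcl, which encodes vinculin, the protein recruited to stretched talin, moved in the same direction by a smaller amount. Its signal was 10.14, 10.001 and 10.10 on the control sides and 10.37, 10.40 and 10.49 on the OBX sides of mice 1, 2 and 3. The groups did not overlap. The mean difference was 0.34 (SE 0.09, 95% interval 0.11 to 0.57, limma adjusted p = 0.0519), just outside the threshold. Vcl passed in 8 of the 15 alternative settings tried, 2 of them with a looser threshold, and among the others were the fit without the mouse block (adjusted p = 0.0457) and quantile normalization (adjusted p = 0.0397).

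Pxn, which encodes the scaffold paxillin, had the most even change over mice. Its signal was 9.42, 9.44 and 9.31 on the control sides and 9.84, 9.93 and 9.83 on the OBX sides. The differences were 0.42, 0.49 and 0.52 in mice 1, 2 and 3, with no overlap of the sides. The mean was 0.48 (SE 0.08, 95% interval 0.27 to 0.69, limma adjusted p = 0.0201). Of the paxillin relatives, Tgfb1i1, which encodes Hic-5, rose by 0.60 (SE 0.13, adjusted p = 0.0323), and Lpxn, leupaxin, differed by 0.16 (SE 0.08, adjusted p = 0.215). The difference of Pxn exceeded that of Lpxn in 3 of 3 mice, by 0.32 ± 0.03 (SD), and that of Tgfb1i1 in 1 of 3. Control means were 6.97 for Lpxn and 8.11 for Tgfb1i1, against 9.39 for Pxn.

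Both kinases of the set had small differences. For Ptk2, which encodes focal adhesion kinase, the control sides read 9.69, 9.61 and 9.72 and the OBX sides 9.93, 9.78 and 9.998. The lowest OBX array, that of mouse 2, lay above the highest control array by less than the spread between control arrays. The mean difference was 0.23 (SE 0.08, 95% interval 0.01 to 0.44, limma adjusted p = 0.116), and its relative Ptk2b, encoding Pyk2, differed by 0.25 (SE 0.10, adjusted p = 0.134). For Ilk, which encodes integrin-linked kinase, a pseudokinase that anchors parvins and PINCH proteins, the control sides read 10.98, 10.83 and 10.95 and the OBX sides 11.09, 11.21 and 10.99. The array of the OBX side of mouse 3 was barely above the highest control array, and the 3 differences were 0.10, 0.38 and 0.04. Their mean was 0.17 (SE 0.10, 95% interval -0.09 to 0.44, limma adjusted p = 0.280), so neither no change nor a rise of 0.44 lies outside the interval.

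Zyx, which encodes zyxin, a LIM protein that moves to strained actin fibres, varied most between mice. Its signal was 8.77, 8.59 and 8.42 on the control sides and 8.90, 9.35 and 8.79 on the OBX sides. The control array of mouse 1 was nearly as high as the OBX array of mouse 3, and the differences were 0.13, 0.76 and 0.38. The mean was 0.42 (SE 0.14, 95% interval 0.05 to 0.79, limma adjusted p = 0.0970). Lpp, a relative of zyxin, rose by 0.76 (SE 0.15, adjusted p = 0.0292), more than Zyx in 3 of 3 mice, and Trip6, another member, differed by 0.37 (SE 0.14, adjusted p = 0.119).

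Actn1 and Actn4 encode the alpha-actinins that cross-link actin filaments outside muscle. Actn1 read 9.81, 9.68 and 9.51 on the control sides and 10.01, 10.35 and 9.98 on the OBX sides, with no overlap. Its mean difference was 0.45 (SE 0.12, 95% interval 0.14 to 0.76, limma adjusted p = 0.0561), and the differences of 0.20, 0.67 and 0.47 followed the order of mice seen for Zyx. Actn1 passed in 4 of 15 alternatives, 1 of them the looser threshold of 0.20 and another the omission of mouse 1 (adjusted p = 0.0446).

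Actn4 was the one gene of the 9 whose sides overlapped. It read 11.72, 11.61 and 11.61 on the control sides and 11.80, 11.50 and 11.76 on the OBX sides, and the OBX side of mouse 2 was the lowest of the 6 arrays. The mean difference was 0.04 (SE 0.09, 95% interval -0.20 to 0.28, limma adjusted p = 0.778). Actn1 exceeded Actn4 in 3 of 3 mice, by 0.12, 0.78 and 0.32. The muscle alpha-actinins Actn2 and Actn3, dimmer with control means of 5.43 and 6.76, differed by 0.09 (adjusted p = 0.485) and 0.30 (adjusted p = 0.0593).

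Ablim1, which encodes an actin-binding LIM protein, ran against the order of mice seen for Zyx and Actn1. Its signal was 8.37, 8.14 and 8.18 on the control sides and 8.83, 8.46 and 8.78 on the OBX sides, and the lowest OBX array was that of mouse 2. The differences were 0.46, 0.32 and 0.60, with a mean of 0.46 (SE 0.09, 95% interval 0.21 to 0.70, limma adjusted p = 0.0313). Ablim3 differed by 0.25 (SE 0.14, adjusted p = 0.276), with a difference below 0 in mouse 2. It was dimmer, with a control mean of 6.18 against 8.23 for Ablim1.

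**Figure D2:**
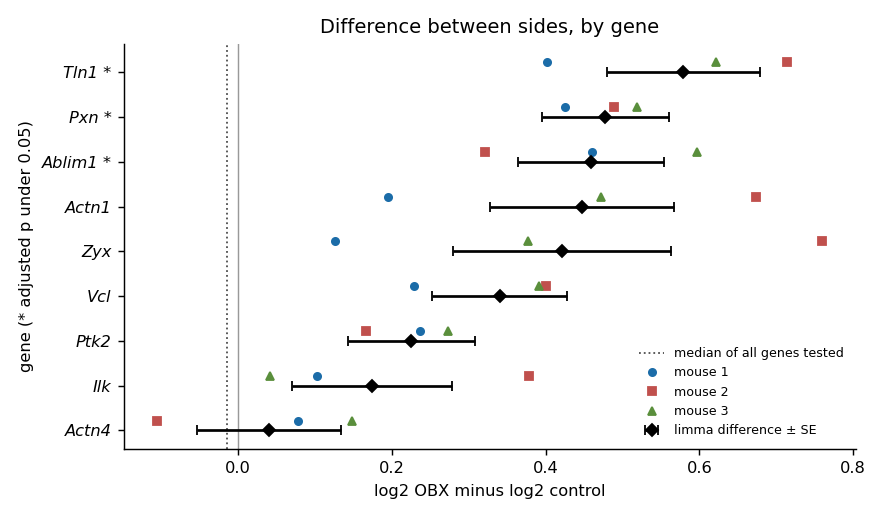
Difference in log2 signal, OBX minus control (x axis), for each gene (y axis): diamonds are limma means with bars of 1 SE, coloured symbols the 3 mice, the dotted line the median of all genes tested, and asterisks an adjusted p under 0.05. The means run from 0.04 for Actn4 to 0.58 for Tln1 with arrays scaled as deposited, and mouse 1 gives the smallest difference for 5 genes.

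The mice ordered the genes in different ways. Mouse 1 gave the smallest difference for 5 genes (Tln1, Vcl, Pxn, Zyx and Actn1), mouse 2 for 3 (Ablim1, Actn4 and Ptk2) and mouse 3 for Ilk. Mouse 2 gave the largest difference for 5 genes (Tln1, Vcl, Zyx, Actn1 and Ilk) and mouse 3 for the other 4. Without mouse 3, none of the 9 passed, with limma adjusted p = 0.139 for Tln1, 0.173 for Pxn and 0.233 for Ablim1, although 8 of the 9 differences were still above 0. Without mouse 1, Ablim1 had a limma adjusted p = 0.0819, and 3 of the 9 passed, Tln1, Pxn and Actn1. With the median of probe sets as the gene value, Ablim1 had an adjusted p = 0.0774, and 2 of the 9 passed, Tln1 and Pxn.

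Each gene was read by 16 to 59 probe sets, short groups of probes within exons, 253 in all. Probe sets of one gene are not replicates, since they read the same RNA. Of the 250 that were bright enough to test, 186 were higher on the OBX side in all 3 mice and 0 were lower in all 3, where 26.2% and 24.1% of all probe sets tested were. At an adjusted p under 0.05, 10 were higher and 0 lower (2.5% and 4.26% of all probe sets tested), 5 of them in Tln1, 2 each in Pxn and Ablim1, and 1 in Actn1.

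In the probe set of Tln1 with the smallest p of its 5, the control arrays read 8.79, 8.65 and 8.33 and the OBX arrays 9.41, 9.55 and 9.36, a difference of 0.85 (SE 0.15, limma adjusted p = 0.0392). The 3 OBX arrays were all above the control arrays, as they were for the other 4 called probe sets of Tln1, whose differences were 0.70 to 0.79. The dimmer of the called probe sets of Ablim1 read 5.94, 5.38 and 5.66 on control sides and 6.82, 6.73 and 6.60 on OBX sides, a difference of 1.05 (SE 0.16, adjusted p = 0.0308), and the other one differed by 0.75 (SE 0.13, adjusted p = 0.0410). In Ablim1 both rose in mouse 2 by more than in mouse 1, unlike the gene value. The called probe sets of Pxn differed by 0.82 (SE 0.16, adjusted p = 0.0458) and 0.75 (SE 0.15, adjusted p = 0.0477). That of Actn1 read 8.59, 8.51 and 7.89 against 9.25, 9.24 and 9.06, with the largest difference, 1.17, in mouse 3, where the gene value of Actn1 had it in mouse 2.

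The rise of Tln1 was shared by most of its probe sets, with 55 of 59 probe sets higher in all 3 mice and a median probe-set difference of 0.57. Vcl was as uniform at a lower level, with 24 of 24 probe sets above 0, differences between 0.20 and 0.54 and 22 of 24 higher in all 3 mice. Pxn had 17 of 19 and Actn1 20 of 23 probe sets higher in all 3 mice. The 25 probe sets of Actn4 lay between -0.09 and 0.33, and 6 were higher in all 3 mice. Ptk2 had 28 of 42, Ilk 9 of 16 and Ablim1 21 of 29 such probe sets, and those of Ablim1 ran from -0.09 to 1.25, the 1.25 from a dim probe set left out of the test and the highest tested value being 1.05.

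Zyx varied over its probe sets as it did over mice. Of its 16, 9 were higher in all 3 mice and 7 were mixed. In mouse 2 its probe sets ran from -0.96 to 1.64. Where these probe sets lie along the gene was not analysed here.

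**Figure D3:**
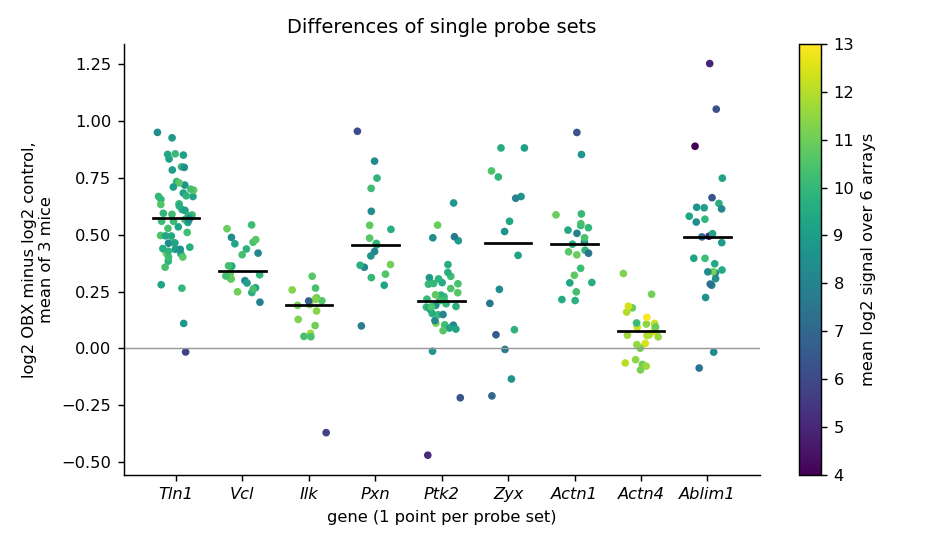
Difference in log2 signal, OBX minus control, as the mean of 3 mice (y axis) for every probe set of the 9 genes (x axis), coloured by mean log2 signal, with a black bar at each gene's median. The medians run from 0.08 for Actn4 to 0.57 for Tln1 with arrays scaled as deposited, and 238 of the 253 points lie above 0.

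Whether probe sets of a gene differed among each other was tested with diffSplice of limma, by the Simes method with Benjamini-Hochberg adjustment over genes. None of the 9 genes passed (7.99% of the 13357 genes tested did), and 3 had an unadjusted p under 0.05 (Tln1, Ptk2 and Ablim1), the smallest being 0.0173 for Ptk2 (adjusted p = 0.127). With the spread of each probe set estimated on its own, again none of the 9 passed (2.98% of genes did), and the smallest adjusted p was 0.257, for Zyx. A single dim probe set of Ptk2, with a mean log2 signal of 5.14, had an adjusted p of 0.0499 in the first fit and 0.628 in the second.

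Promoter sequences were read from RefSeq for the windows upstream of the genes' annotated starts. They were searched for motifs of serum response factor (SRF), TEAD and AP-1 type and for the GC box. The table held windows for 8 of the 10 genes, and Pxn and Ptk2 were not among them. In the 250 bases before the start, on both strands, a CArG box (the SRF motif) was present in 1.47% of all 32851 windows, the TEAD core GGAATG in 12.6%, the AP-1 site TGANTCA in 6.75% and the GC box GGGCGG in 32.7%. Of the measured genes with a window, Vcl alone had a CArG box, 227 bases before the start, and it also had GGAATG at 143 bases. Actn4 had GGAATG at 216 and TGANTCA at 169 bases, Zyx had TGANTCA at 121 bases, and of several Ablim1 windows 1 had both GGAATG and TGANTCA. Actn1, Tln1 and Ilk had none of the 3. The GC box was present in at least 1 window of each of these genes except Tln1. Below are the bases outside the annotated gene for Vcl, for the alpha-actinin pair, whose differences were 0.45 and 0.04, and for Tln1, 5′ to 3′ on the gene's strand in GRCm38.p6, with CArG, GGAATG (either strand) and TGANTCA matches in capitals.
Vcl, chr14:20929148-20929382, plus strand: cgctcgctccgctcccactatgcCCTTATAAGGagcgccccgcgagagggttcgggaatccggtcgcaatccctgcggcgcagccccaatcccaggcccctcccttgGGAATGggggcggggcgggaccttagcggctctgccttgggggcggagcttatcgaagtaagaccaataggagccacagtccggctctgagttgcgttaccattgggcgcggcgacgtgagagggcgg
Actn1, chr12:80260421-80260613, minus strand: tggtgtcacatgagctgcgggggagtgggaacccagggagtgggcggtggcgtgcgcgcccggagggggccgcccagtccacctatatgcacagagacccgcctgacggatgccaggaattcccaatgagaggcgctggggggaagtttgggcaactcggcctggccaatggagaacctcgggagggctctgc
Actn4, chr7:28962352-28962582, minus strand: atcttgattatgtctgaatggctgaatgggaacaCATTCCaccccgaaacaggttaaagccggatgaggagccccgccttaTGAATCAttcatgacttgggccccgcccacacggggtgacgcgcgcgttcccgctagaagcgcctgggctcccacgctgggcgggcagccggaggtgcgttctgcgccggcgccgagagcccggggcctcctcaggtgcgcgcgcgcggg
Tln1, chr4:43562584-43562833, minus strand: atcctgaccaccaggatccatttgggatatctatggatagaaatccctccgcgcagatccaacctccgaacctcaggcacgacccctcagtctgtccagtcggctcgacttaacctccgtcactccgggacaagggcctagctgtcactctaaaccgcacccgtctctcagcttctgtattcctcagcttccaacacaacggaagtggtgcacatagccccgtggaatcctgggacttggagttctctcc

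The capitals mark 2 matches in Vcl, 2 in Actn4 and none in Actn1 or Tln1; a match is a string of letters and no evidence of binding, and its absence from this window says nothing about the factor.

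Genes with the most similar pattern over the 6 arrays were found by Pearson correlation, as a description with n = 6 arrays of 3 mice. They were Man2b2 for Tln1 (r = 0.998), Gpx8 for Pxn (0.998), Ror2 for Vcl (0.996), Emp1 for Actn1 (0.9995), Ltbp3 for Zyx (0.997), Zc3hav1l for Ablim1 (0.9996), Sass6 for Ptk2 (0.997), Nat8 for Ilk (0.996) and Mbd3 for Actn4 (0.996). Between 95 genes, for Actn4, and 574, for Actn1, correlated above 0.95, so a high r was common among these arrays.

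Partners of the 9 genes were examined next. Of 122 genes tested from 7 lists of adhesion and actin partners, 39 were higher and 4 lower, where 9.89% and 12.7% of all genes were. Counts in each partner list below are read against these same shares. The median difference of the 122 was 0.32 (0.25, 0.38 and 0.34 in mice 1, 2 and 3) against -0.01 for all genes. Under ribosomal protein centring 3 were higher and 5 lower, and 81 of the 122 differences were above 0 in place of 110. Over all 14742 genes tested, 244 were then higher and 4187 lower.

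Among the integrins, the receptors that talin binds, 6 of 13 were higher and 0 lower, with a list median of 0.53. Itgav, the alpha v subunit, rose by 0.81 (SE 0.09, limma adjusted p = 0.00768). Its partner subunit Itgb5 rose by 0.53 (SE 0.09, adjusted p = 0.0214), and the laminin receptor subunit Itga6 by 0.58 (SE 0.12, adjusted p = 0.0310). Of the adaptors at the integrin tail and in the ILK complex, 5 of 12 were higher and 0 lower, among them Fermt2, which encodes kindlin-2, a co-activator of integrins with talin (0.55, adjusted p = 0.0242), Kank2 (0.46, adjusted p = 0.0250) and the tensin Tns2 (0.44, adjusted p = 0.0275).

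Of the partners of focal adhesion kinase and paxillin, 4 of 22 were higher and 2 lower, where 9.89% and 12.7% of all genes were, and their median of 0.20 turned to -0.03 under ribosomal protein centring. Elmo1, an adaptor in Rac activation, rose by 0.76 (SE 0.09, limma adjusted p = 0.00817), while its paralog Elmo2 fell by 0.81 (SE 0.08, adjusted p = 0.00621). Git1, a paxillin-binding scaffold, fell by 0.38 (SE 0.08, adjusted p = 0.0331), and the vinculin-binding Sorbs3, vinexin, rose by 0.73 (SE 0.10, adjusted p = 0.0119). Of the zyxin-type LIM and Ena/VASP proteins, 6 of 20 were higher and 0 lower, with Csrp2 at 0.64 (adjusted p = 0.0126), Pdlim5 at 0.56 (adjusted p = 0.0166) and Pdlim7 at 0.53 (adjusted p = 0.0212).

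Among actin cross-linkers and membrane linkers 6 of 17 were higher and 0 lower. These included the membrane linkers Rdx, radixin (0.63, limma adjusted p = 0.0166), and Ezr, ezrin (0.54, adjusted p = 0.0169), and the actin-bundling Svil, supervillin (0.69, adjusted p = 0.0266). Tpm4, Tpm1 and Tpm2, which encode tropomyosins that coat actin filaments, rose by 0.63, 0.71 and 0.76 (adjusted p = 0.0111, 0.0260 and 0.0343), and the profilin Pfn2 and the cofilin kinase Limk1 fell by 0.63 and 0.42 (adjusted p = 0.0247 and 0.0385).

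The genes around SRF and YAP, transcription regulators that answer to actin and adhesion, were higher in 8 of 14 and lower in 0. Amotl2 rose by 0.63 (limma adjusted p = 0.0132), the calponin Cnn2 by 0.54 (adjusted p = 0.0147) and the YAP partner Tead1 by 0.55 (adjusted p = 0.0170). Srf itself differed by -0.00.

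**Figure D4:**
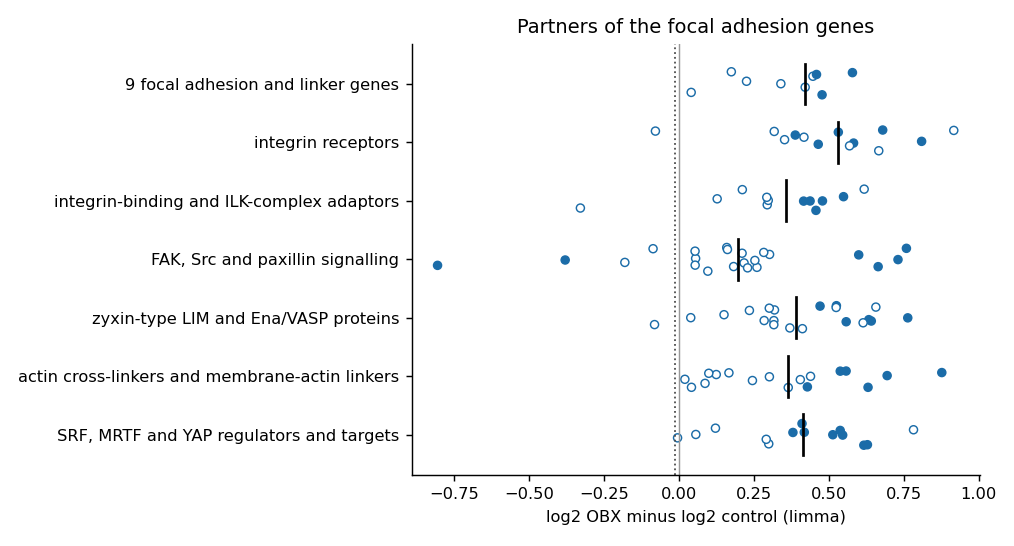
Difference in log2 signal, OBX minus control (x axis), for the 9 genes and for each gene of 6 partner lists (y axis), with filled points at an adjusted p under 0.05, black bars at list medians and a dotted line at the median of all genes tested. The list medians run from 0.20 to 0.53 with arrays scaled as deposited, and the lowest turns to -0.03 under ribosomal protein centring.

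Most cell types in this tissue express focal adhesion genes, and the marker lists of several had medians above 0. Counts of called markers are read against the 9.89% of all genes that were higher. Macrophage markers were higher in 8 of 19 and lower in 0, with a median of 0.76, and their summed linear signal was 6639 to 9178 on control and 10669 to 20653 on OBX sides. Fibroblast markers were higher in 7 of 12 (median 0.69, sums 28751 to 40818 against 46889 to 55401). Smooth muscle and pericyte markers were higher in 3 of 12 (median 0.62, sums 12076 to 14862 against 16940 to 23540).

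Endothelial markers were higher in 1 of 12, a share near that of all genes (median 0.55, sums 2211 to 2819 against 3032 to 4536), and basal precursor markers in 7 of 11 (median 0.69, sums 5513 to 5840 against 7589 to 9493). Glial markers were higher in 3 of 10 with a median of 0.33, and horizontal basal cell markers in 2 of 6 with a median of 0.36. Under ribosomal protein centring the markers called higher were 3 of 19 for macrophages, 1 of 12 for fibroblasts, 6 of 11 for precursors and 0 for smooth muscle, endothelium, glia and horizontal basal cells. Without mouse 3 they were 5 for macrophages, 3 for precursors and 0 for the other 5 lists. The part of these cell types in the differences of the 9 genes was not tested.

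In the remaining lists, sustentacular and gland markers were higher in 3 of 10 and lower in 0 with a median of 0.05, and under ribosomal protein centring 0 were higher and 2 lower with a median of -0.18. Immature OSN markers were higher in 0 and lower in 1 of 12, with a median of 0.12 (-0.11 under that centring). None of the 7 platelet and 6 skeletal muscle markers was called by limma (0 and 2 had an unadjusted p under 0.05), with medians of -0.01 and -0.05. Of 6 respiratory epithelium markers 1 was higher and 1 lower, with a median of 0.20 (-0.03 under that centring). Neutrophil markers were higher in 1 of 10 and above 0 in 9, and had a median of 0.64, with -0.18, 0.18 and 1.66 in mice 1, 2 and 3.

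The order of mice was not the same for all markers. Endothelial medians were 0.14, 1.08 and 0.33 in mice 1, 2 and 3, smooth muscle medians 0.26, 1.12 and 0.39, and macrophage medians 0.56, 1.24 and 0.65. Zyx and Actn1, at 0.13, 0.76 and 0.38 and at 0.20, 0.67 and 0.47, had the same order as these 3 lists, as did the fibroblast medians (0.35, 0.84 and 0.82), the glial medians (0.19, 0.63 and 0.20), the joint partner lists, Tln1 at 0.40, 0.71 and 0.62 and, by a margin of 0.01 between mice 2 and 3, Vcl. Ablim1, Ptk2 and Actn4 were lowest in mouse 2. So were the precursor markers, at 0.62, 0.48 and 0.84, and the immature OSN markers, at 0.12, -0.08 and 0.27. Also lowest there were the median of all genes tested, at 0.03, -0.08 and -0.00, and the horizontal basal cell markers, at 0.47, 0.27 and 0.29. The sustentacular, respiratory and mature OSN medians were lowest in mouse 2 as well, so this was not particular to precursors and immature OSNs. Each order rests on 3 mice and is given without a test.

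**Figure D5:**
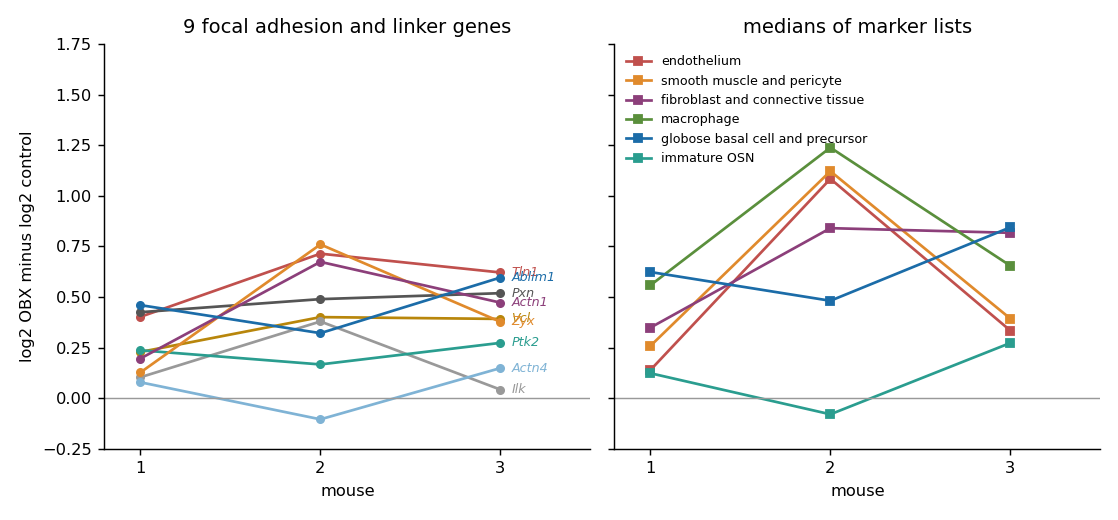
Difference in log2 signal, OBX minus control (y axis), in each mouse (x axis) for the 9 genes (left) and for the medians of 6 cell type marker lists (right), with arrays scaled as deposited. Zyx and Actn1 peak in mouse 2 at 0.76 and 0.67, as do the endothelial and smooth muscle medians at 1.08 and 1.12, while Ablim1 and the precursor median are lowest there at 0.32 and 0.48.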

How the data were processed

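RNA of olfactory epithelium was measured on Affymetrix Mouse Exon 1.0 ST arrays. The deposited values are log2 signals per probe set, which the authors made by RMA in Affymetrix Expression Console (versions not given in the sources used here); signals have no read depth, and the number of arrays limits the precision. No per-sample column was left unused.

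Of 229581 probe sets, 209279 carried 1 gene symbol, 4446 several and 15856 none; the first were used, with symbols updated through RefSeq. Gene values were median polish summaries, and genes in the lowest 10% of mean signal were dropped, a filter that the study's methods also used. OBX and control were compared with limma 3.58.1 in R 4.3.3, with the mouse as a block. The numbers in the titles pair both sides of a mouse. After removal of side means both sides of a mouse correlated at -0.07, 0.27 and 0.24. The fits were tested on simulated data, where diffSplice with one spread per gene made many false calls, so a fit with each probe set's own spread was added after seeing the data. Plots used matplotlib 3.10.9 under Python 3.11.15.

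The genes and all lists were chosen with earlier results of these data known, and some were named by the study from these arrays, so no test is independent evidence of their direction. Named genes were all members, up to 3 called genes of each partner list in each direction by p, the closest paralogs, the most correlated gene of each member and defining markers. One partner list counts in the joint total of 122 genes but is not reported here on its own. Srf was chosen after its value was seen. Nothing says that samples differ other than by mouse and side. The limma p-values of genes rest on the spread between 3 mice, moderated over genes. Those of the first diffSplice fit rest on a single spread per gene, shared by its probe sets. Alternatives changed the block, test, threshold, filter, variance model, normalization, centring, summary and mice.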

Additional observations from a re-analysis of the deposited data

How the results depend on the processing

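Leaving out the block, as a fit without the pairing of sides, raised the members' probe sets called higher from 10 to 21. It lowered the partner genes called lower from 4 to 2 and brought Vcl past the threshold, with 4 members called higher. Over all genes, 1285 were then higher, in place of 1458. The methods' paired t-test called 5 members at its unadjusted threshold, where 1619 of all genes were higher. After Benjamini-Hochberg adjustment it called 0 members, 0 and 0 partner genes higher and lower, and 0 and 1 of all genes. At an adjusted p under 0.20, 7 members, 84 partner genes and 125 of the members' probe sets were called higher, and over all genes 3469 were higher and 3544 lower. With the lowest 30% left out, 5 members were called, and 1596 of the 11466 genes tested were higher. Of the members' probe sets 66 were then called, and without a filter 0. The share of all probe sets called is given here only for the main setting. The members' probe-set counts under other settings are therefore not read as a result about these genes. The trended robust variance model called 5 members, and 1652 of all genes were higher. With the median of probe sets, 2 members, Ablim1 no longer among them, and 934 of all genes were higher and 2 partner genes lower. Ribosomal protein centring gave 0 members higher, 3 partner genes higher, 244 and 4187 of all genes higher and lower, and a members' median of 0.19. It turned the differences of Actn4 to -0.19, Ilk to -0.0556, Ptk2 to -0.0050, Tln2 to -0.0190, Actn2 to -0.14, Lpxn to -0.0710 and Gap43 to -0.13, and quantile normalization turned Cyp2g1 to 0.0111.

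Leaving out 1 mouse in turn gave 0 to 3 members called higher, a members' median of 0.31 (without mouse 2) to 0.46, 0 to 31 partner genes higher and 0 to 2 lower, 63 to 1122 of all genes higher and 825 to 1566 lower, 0 to 5 of the members' probe sets higher and 0 to 1 members with differing probe sets. Each lowest count of genes called higher or lower came without mouse 3, where the difference of Actn4 was -0.0129 (0.114 without mouse 2). The 0 for members with differing probe sets came without mouse 1. With 3 mice, precision is set by 2 residual degrees of freedom before moderation. A call that is missed here does not show that a gene was the same on both sides.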
